A study of Mus musculus with 6 samples.

Results

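Calcium enters atrial muscle cells through voltage-gated channels, and the noncoding transcripts at 3 loci of this step were followed in the left atrium of mice with raised FOG2: Cacna1c, which encodes the pore of the L-type calcium channel, Cacna1g, which encodes a pore of the T-type channel, and Camk2d, which encodes the delta chain of calcium/calmodulin-dependent kinase II. A row of the deposited table was taken when it overlapped the GENCODE M21 body of one of the genes, or when it overlapped no protein-coding gene and had one of them as nearest start within 100 kb. This gave 13 of 34518 features, of which 7 lay in Cacna1c, 3 in Cacna1g and 3 in Camk2d. All 13 lay inside a gene body and 0 were intergenic.

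In a heart muscle cell, L-type current carries the calcium that triggers release from the sarcoplasmic reticulum. T-type current contributes mainly in pacemaker and atrial cells. CaMKII is switched on by calcium and calmodulin and phosphorylates the L-type channel, the release channel and the inhibitor of the calcium pump. FOG2, encoded by Zfpm2, is a cofactor of GATA transcription factors.

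Left atria came from adult CD1 mice, an outbred stock, in 3 libraries with FOG2 overexpression (FOG2_OE) and 3 wild type libraries (WT). Both groups had been kept without doxycycline for 1 week. The protocol calls the animals DTG and NTG; the labels name neither the promoter that drives FOG2 nor any pooling of animals. RNA was depleted of ribosomal and of polyadenylated RNA, so that mRNA of the 3 genes was not the target of the assay. The effective libraries implied by the table held 71180401 to 84907173 reads. Its 6 sample columns are model fits that differ within a group by library size alone, and carry no information on how the replicates varied. Fitted levels are given as CPM, with the effective library as denominator.

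The group labels could be checked at Zfpm2, though not library by library, because the sample columns are group fits. MSTRG.29831, inside that gene, had a fitted level of 416 CPM with FOG2 overexpression, against 0.484 CPM without. Loci of 9 of 10 atrial muscle genes had features, 79 in all, and the authors' deposited table called 0 of them higher and 18 lower, where 1.16% of all features were higher and 4.65% lower. The 18 lay at Kcnj3 (9), Myl7 (3), Sln (3), Clu (2) and Dkk3 (1). Kcna5, Myl4, Nppa and Pam had no call. Summed levels of Kcna5, Myl4 and Nppa were higher in FOG2_OE (ratios to WT of 1.84, 1.13 and 1.17), and that of Pam was lower (0.608). Loci of 7 of 8 fibroblast genes had 36 features and loci of 5 of 6 endothelial genes had 19, and the authors' deposited table called none of either. Summed levels (WT, then FOG2_OE) were 14.2 and 14.3 CPM for fibroblast loci, 3.11 and 3.76 CPM for endothelial loci, and 55.9 and 24.9 CPM for atrial muscle loci. Loci of 4 of 6 pacemaker and conduction genes had 24 features, 10 of them called higher by the authors' deposited table, at a summed level of 2.08 CPM in WT and 9.18 CPM in FOG2_OE. Among loci of smooth muscle and pericyte genes 1 of 5 features was called higher by the authors' deposited table, and of those of ventricular muscle (10), fat (13), immune (4) and neuron or Schwann cell (3) genes none was called. The part of these shifts in the results that follow was not tested, and in whole tissue fewer cells of a type and less RNA per cell cannot be told apart.

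Every one of the 13 features was listed on the strand opposite to its host gene. Since TruSeq RNA v2 libraries keep no strand information, that listing cannot be taken as measured. At all 13, reads of the host gene's precursor RNA and of an antisense transcript cannot be told apart. The 3 Cacna1g features also cross exons of their host, where mature mRNA could be counted as well, and the others cross none. The sequences shown here are stretches where it matters or where a feature sits in another annotated RNA. The first is all of MSTRG.55626 (chr3:126667495-126667599, minus strand, mm10), which lies in exon 2 of Gm15551, a noncoding RNA annotated antisense to Camk2d. The others are coding exons 20 and 14 of Cacna1g, from transcript Cacna1g-201 (chr11:94430095-94430279 and chr11:94438105-94438189, minus strand), which lie inside MSTRG.15621 and MSTRG.15622. They are printed 5′ to 3′ on the transcript's strand, without capitals, from the GENCODE M21 transcripts.
MSTRG.55626: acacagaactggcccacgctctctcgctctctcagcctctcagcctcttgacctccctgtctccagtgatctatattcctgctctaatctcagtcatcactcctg
Cacna1g exon 20: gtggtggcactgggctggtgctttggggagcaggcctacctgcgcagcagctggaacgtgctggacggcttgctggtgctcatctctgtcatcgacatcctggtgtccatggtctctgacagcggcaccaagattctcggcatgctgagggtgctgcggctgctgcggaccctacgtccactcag
Cacna1g exon 14: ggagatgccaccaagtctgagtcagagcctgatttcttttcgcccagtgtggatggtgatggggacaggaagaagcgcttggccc
The Gm15551 stretch runs for 105 bases with a GC content of 53.3%, and the exons for 185 and 85 bases with 62.7% and 56.5%.

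Features of the 3 genes differed in where they lay and how long they were. The 7 of Cacna1c sat on chromosome 6 between 118897526 and 119086535, all in introns. Of these, 6 lay in intron 3 of transcript Cacna1c-207, which is 272 kb long, and MSTRG.71945 lay in intron 1. A block of 5, MSTRG.71938 to MSTRG.71943, covered 10.6 kb, with gaps of 0.325 to 5.68 kb between neighbours. They may belong to 1 transcript, which was not tested, and are not counted as independent. The 3 of Camk2d, on chromosome 3 from 126641940 to 126746111, were 105 to 335 bases long and touched no Camk2d exon. MSTRG.55627 lay 22 bases from Gm42514, a locus in the provisional class TEC. Gene bodies of Cacna1c and Camk2d held 1.15 and 1.20 features per 100 kb, near the 1.13 of all protein-coding genes together, and that of Cacna1g held 4.56.

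**Figure D1:**
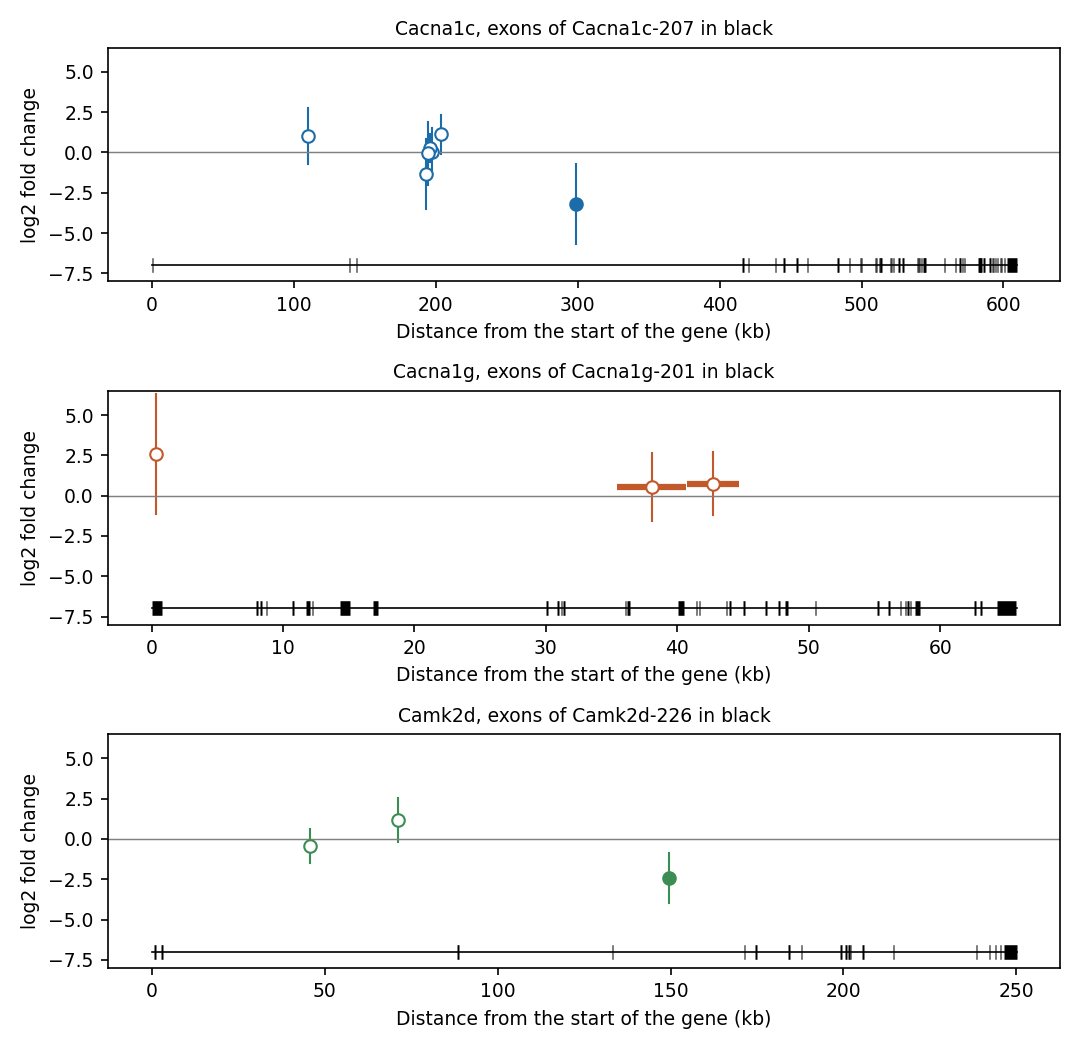
Each feature is drawn at its distance from the start of the gene (kb) against its deposited log2 fold change of FOG2_OE over WT, with a vertical bar for its 95% implied interval and the exons of 1 coding transcript in black. The filled features, 1 in Cacna1c and 1 in Camk2d, are those with an adjusted p under 0.05, and the 3 Cacna1g features all cross exons.

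Of the 13 features, the authors' deposited table called 2 lower in FOG2_OE and 0 higher (likelihood ratio test, adjusted p under 0.05, Benjamini-Hochberg over all features). These were MSTRG.71934 in Cacna1c and MSTRG.55627 in Camk2d. Over all features 4.65% were called lower, 1.16% higher and 5.81% either way, and over the 10192 features listed antisense in a protein-coding gene 4.07%, 1.02% and 5.09%. A count of 2 among 13 is too small to be read as more than these shares. At an unadjusted p under 0.05 in the same test the count was again 2 lower and 0 higher. Under that threshold lay 5880 of all 34518 features and 1574 of the 10192 listed antisense, so that 2 of 13 is near both shares. The authors' deposited table put the median log2 change of the 13 at 0.27 and that of all features at -0.21, with 8 members above 0 and 5 below. With 10 residual degrees of freedom for the test, 1.27% of all features were called (0.203% higher, 1.07% lower), with the median ratio of all features set to 1, 5.1% (1.62% higher, 3.47% lower), and at an adjusted p under 0.01, 3.3%. Among features of at least 20 mean fitted counts the share was 9.85% (1.98% higher, 7.86% lower), and with 4 residual degrees of freedom it was 0.0%. No member was called under any of these rules. Both calls rest on few reads.

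MSTRG.71934 is a stretch of 133 bases in intron 3 of Cacna1c (chromosome 6, 118897526 to 118897658), 299 kb from the start of the gene. Its fitted counts were 0.672, 0.611 and 0.716 in FOG2_OE replicates 1 to 3 and 6.48, 7.14 and 7.49 in WT replicates 1 to 3. The 1 level fitted to each group thus came to under 1 read per library in FOG2_OE and above 6 in WT. The authors' deposited table gave it a log2 change of -3.21 (implied SE 1.27, adjusted p = 0.0431). The summed fitted counts round to 2 in FOG2_OE and 21 in WT, a level 10.7-fold higher in WT with an exact counting interval of 2.62 to 94.4 (95%, counting error only). With the median ratio of all features set to 1 the adjusted p was 0.0737, and with the statistic read as an F on 10 residual degrees of freedom it was 0.228.

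MSTRG.55627, the other call, is a stretch of 335 bases in intron 4 of Camk2d transcript Camk2d-226 (chromosome 3, 126745777 to 126746111), 149 kb from the start of the gene. Its fitted counts were 2.63, 2.40 and 2.81 in FOG2_OE and 13.2, 14.5 and 15.2 in WT. The groups lay apart, but the 3 values of a group are 1 fitted level scaled by library size and show no agreement between replicates. The authors' deposited table gave it a log2 change of -2.43 (implied SE 0.80, adjusted p = 0.0282). WT stood at 0.185 CPM and FOG2_OE at 0.0331 CPM. The call was lost with the median ratio set to 1 (adjusted p = 0.0593), and the F reading with 10 residual degrees of freedom gave an adjusted p of 0.20.

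**Figure D2:**
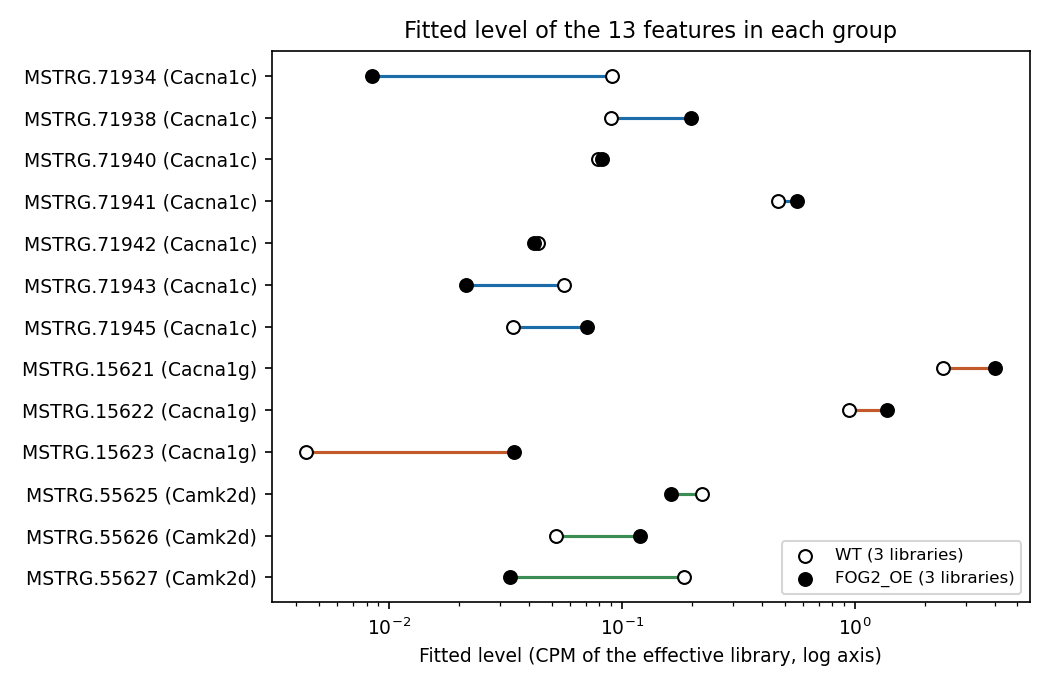
The fitted level of each of the 13 features is plotted in CPM on a log axis, with open points for WT and filled points for FOG2_OE, each standing for 3 libraries that share 1 fitted CPM. The widest gaps are those of MSTRG.71934, MSTRG.55627 and MSTRG.15623, and the highest level is that of MSTRG.15621 at 4.02 CPM in FOG2_OE.

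At the L-type channel locus, log2 changes ran from -3.21 to 1.13 in the authors' deposited table, with 1 of 7 features called. Summed over its 7 features, Cacna1c stood at 0.986 CPM with FOG2 overexpression against 0.861 CPM in WT, a ratio of 1.15 with a counting interval of 0.944 to 1.39. The authors' deposited table gave the 7 a median log2 change of 0.05. MSTRG.71941, the longest of them (chromosome 6, 118999327 to 119000975, 1649 bases), held 54.2% of the sum in WT and 57.1% in FOG2_OE. Its fitted counts were 44.9, 40.8 and 47.8 in FOG2_OE and 33.2, 36.6 and 38.4 in WT, and the authors' deposited table gave it a log2 change of 0.27 (implied SE 0.44, adjusted p = 0.824). These levels are close, and the interval of the change, from -0.59 to 1.13 on the log2 scale, reaches to both sides of 0.

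Within the block, MSTRG.71938 and MSTRG.71943 lay at opposite ends. The former (398 bases) had fitted counts of 14.3 to 16.8 in FOG2_OE and 6.36 to 7.35 in WT, for which the authors' deposited table gave a log2 change of 1.13 (implied SE 0.62, adjusted p = 0.334). The latter (112 bases) had 1.55 to 1.81 in FOG2_OE and 4.02 to 4.64 in WT, for which the authors' deposited table gave -1.34 (implied SE 1.10, adjusted p = 0.558). Neither passed the test, and the block as a whole stood at 0.907 CPM (FOG2_OE) and 0.736 CPM (WT). Between them, MSTRG.71940 (chromosome 6, 118998816 to 118999001) had fitted counts of 6.53, 5.94 and 6.96 in FOG2_OE and 5.65, 6.22 and 6.53 in WT. These are 1 fitted level per group scaled by library size, 0.0820 CPM in FOG2_OE and 0.0794 CPM in WT. Their overlap says nothing about the spread between replicates. The authors' deposited table gave MSTRG.71940 a log2 change of 0.05 (implied SE 0.76, adjusted p = 0.988). For MSTRG.71942, the authors' deposited table gave -0.05 (95% implied interval -2.01 to 1.91, adjusted p = 0.989), which became 0.16 with the median ratio of all features set to 1. The errors of both rest on features of like abundance. The 131 bases of MSTRG.71945, 6.40 kb from the nearest start of a coding Cacna1c transcript, were given a log2 change of 1.03 by the authors' deposited table (implied SE 0.89, adjusted p = 0.592).

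The T-type channel locus held the most abundant features of the 13, and the 2 largest had an implied variation far above that of features of like abundance. MSTRG.15621 (chromosome 11, 94429489 to 94433454) spans coding exons 17 to 20 of Cacna1g-201, with 479 of its 3966 bases in them. Its fitted counts were 320.3, 291 and 341 in FOG2_OE and 171, 188 and 198 in WT. MSTRG.15622 (chromosome 11, 94433532 to 94438763) follows after a gap of 77 bases and spans exons 14 to 16, with 714 of its 5232 bases in them. Its fitted counts were 109.9, 99.9 and 117 in FOG2_OE and 67.3, 74.1 and 77.7 in WT. Both had higher fitted levels in FOG2_OE, which the authors' deposited table put at log2 changes of 0.74 (implied SE 0.99) and 0.54 (implied SE 1.08), and neither passed (adjusted p = 0.773 and 0.863). The intervals, -1.20 to 2.68 and -1.57 to 2.66, leave the direction unresolved.

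The width of these intervals goes back to the dispersion that the deposited likelihood ratios imply. The biological coefficient of variation, the spread between libraries beyond counting error, came out at 83.9% for MSTRG.15621 and 90.9% for MSTRG.15622. In 200 features of like abundance its median was 29.5% and 32.6%, and 99.0% and 98.5% of those features had a lower value. The likelihood ratio alone does not show which library or group varied. No feature of Cacna1c or Camk2d with a value of its own stood so far from like features: their values ran from 33.9% to 68.3%, against medians of 33.0% to 69.5%.

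**Figure D3:**
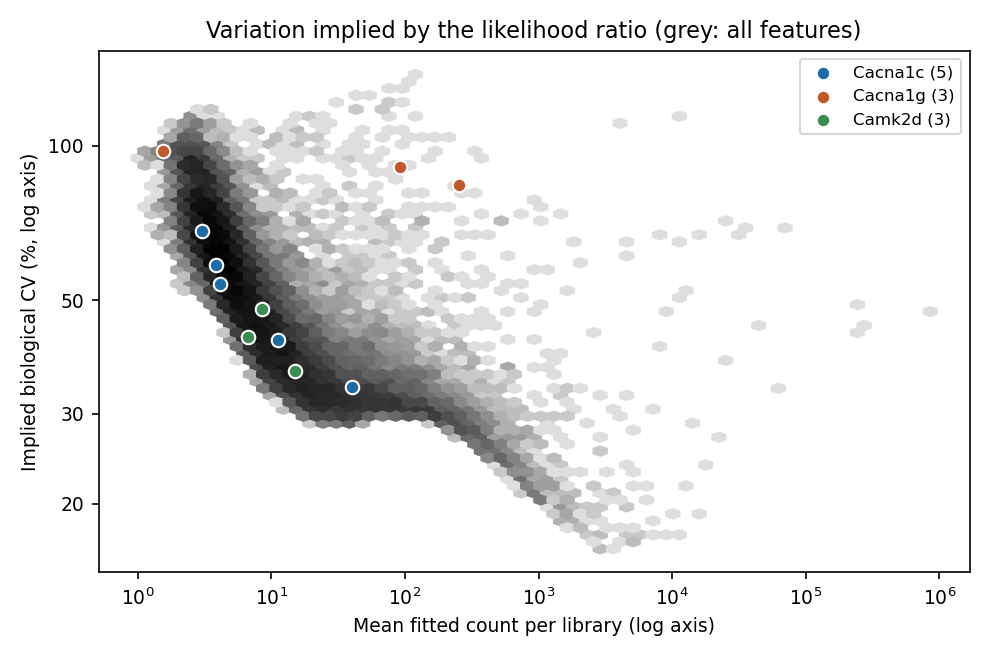
The implied biological coefficient of variation (%, log axis) is plotted against the mean fitted count per library (log axis), with features with a likelihood ratio of at least 0.1 in grey and the members in colour. MSTRG.15621 and MSTRG.15622, at mean fitted counts of 252 and 91.0, lie far above the band of features of like abundance; MSTRG.71940 and MSTRG.71942 have likelihood ratios too small for a value of their own.

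At the start of Cacna1g, MSTRG.15623 (chromosome 11, 94473824 to 94473938) lies 0.260 kb inside the gene, wholly in the 5′ UTR of exon 1. Its fitted counts were 2.75, 2.50 and 2.93 in FOG2_OE and 0.313, 0.345 and 0.362 in WT, sums that round to 8 and 1. The ratio of these counts, scaled by library size, was 7.82 with a counting interval of 1.05 to 347. The authors' deposited table gave it a log2 change of 2.58 (implied SE 1.90, adjusted p = 0.395), so the feature did not pass. Summed over the 3 features, Cacna1g stood at 5.43 CPM in FOG2_OE and 3.35 CPM in WT, a ratio of 1.62 with a counting interval of 1.48 to 1.77 that leaves out the spread between libraries.

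At the kinase locus, Camk2d, fitted levels went both ways. MSTRG.55625 (chromosome 3, 126641940 to 126642055), in intron 2, was its most abundant feature, with fitted counts of 12.99, 11.8 and 13.8 in FOG2_OE and 15.7, 17.3 and 18.1 in WT. The authors' deposited table gave it a log2 change of -0.43 (implied SE 0.53, adjusted p = 0.743). MSTRG.55626, whose sequence in Gm15551 is printed above, had 9.49, 8.63 and 10.1 in FOG2_OE and 3.70, 4.08 and 4.28 in WT. This was the reverse of the other 2 features of the gene, and the authors' deposited table gave it a log2 change of 1.17 (implied SE 0.70, adjusted p = 0.382). Whether it differs from its neighbours was not tested. Over the 3 features WT summed to 0.457 CPM and FOG2_OE to 0.315 CPM. The ratio of FOG2_OE over WT was 0.689, with a counting interval of 0.506 to 0.935 that leaves out the spread between libraries. By feature, fitted levels (WT, then FOG2_OE) were 0.220 and 0.163 CPM for MSTRG.55625, and 0.0520 and 0.119 CPM for MSTRG.55626. Those of the called MSTRG.55627 were 0.185 and 0.0331 CPM, the largest fall of the 3. The lower sum thus rests largely on that called feature. Per kb of listed length, MSTRG.55625 was the highest of the 13 in both groups, at 1.41 CPM per kb in FOG2_OE and 1.90 in WT. The lowest were MSTRG.71934 in FOG2_OE (0.0634 CPM per kb) and MSTRG.15623 in WT (0.0383).

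**Figure D4:**
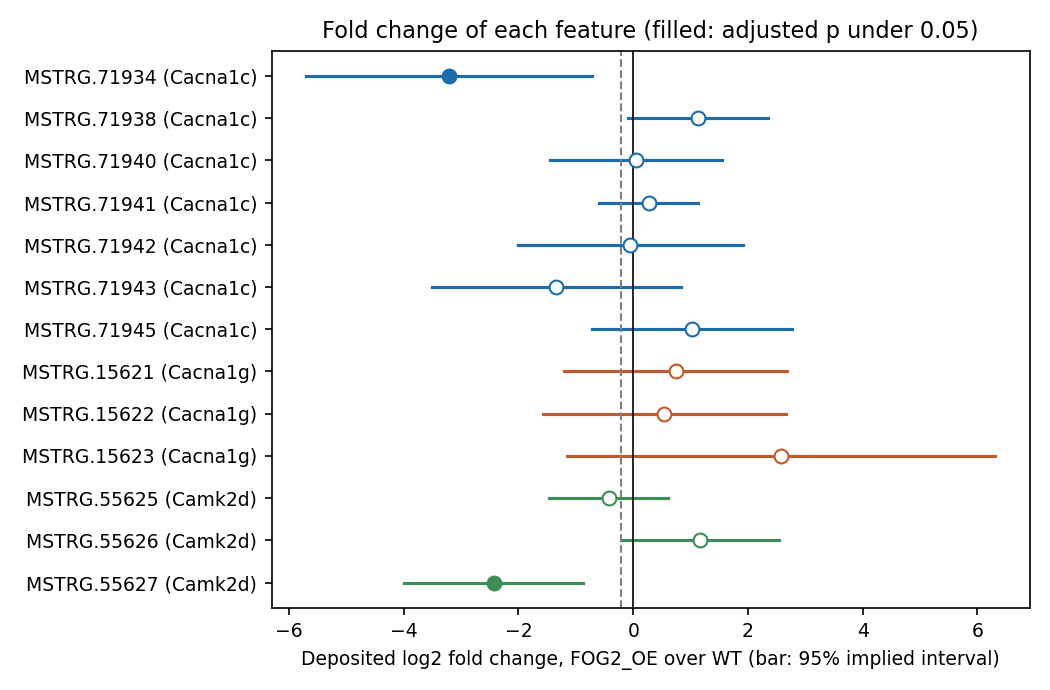
The deposited log2 fold change of each of the 13 features is drawn with a bar for its 95% implied interval, filled where the adjusted p is under 0.05, with a dashed line at the median of all features, -0.21. Only the bars of MSTRG.71934 and MSTRG.55627 lie wholly to one side of 0; that of MSTRG.15623 is the widest.

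Promoters were searched for the letters of GATA sites and of the T-box core, since FOG2 acts with GATA factors and the series concerns TBX5 and GATA4. The RefSeq table (GRCm38.p6) held windows for 3 starts of Cacna1c and 1 of Camk2d, and Cacna1g had no entry. In the 250 bases before each start, neither AGATAA nor TGATAA was found on either strand in any of the 4, where 16.6% of 32851 such windows hold at least 1 of them. The letters AGGTGT occurred once, in the Camk2d window, and 11.8% of all windows hold them on either strand. That window is printed because it holds the single match among the 4, in capitals (chr3:126596701-126596950, plus strand, 5′ to 3′).
Camk2d promoter: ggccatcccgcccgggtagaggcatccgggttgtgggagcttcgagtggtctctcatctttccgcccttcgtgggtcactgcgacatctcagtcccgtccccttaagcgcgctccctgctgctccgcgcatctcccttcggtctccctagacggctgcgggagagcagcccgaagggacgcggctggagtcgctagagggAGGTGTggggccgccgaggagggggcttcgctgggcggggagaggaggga
None of the 13 features overlaps these windows. Outside them, AGGTGT was also found in exon 15 of Cacna1g (chr11:94437829-94438025), inside MSTRG.15622. Such matches describe letters in the reference sequence only.

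Other genes of calcium entry and calmodulin signalling were called at the rate of all features. Of 63 genes listed, 30 had features, 125 in all, and the authors' deposited table called 0 of these higher and 7 lower, or 5.6% against 5.81% of all features. The authors' deposited table gave them a median log2 change of -0.16. Cacnb2, the main cardiac beta subunit of the L-type channel, had 7 features, none called, whose log2 changes the authors' deposited table put between -2.48 and 0.08. The sodium-calcium exchanger gene Slc8a1 had 11 features and the kinase paralog Camk2b 10, none called, and the authors' deposited table gave medians of 0.0042 and -0.17.

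The 7 calls were linked to Camkk2 (5 of 5 features), Akap7 (1 of 1) and Trpc1 (1 of 3), which are named after their values were seen. That of Trpc1, MSTRG.86972, is intergenic, 50.9 kb from the start of the gene. Akap7 encodes an anchoring protein that holds protein kinase A at the L-type channel, and the authors' deposited table gave its feature, MSTRG.7337, a log2 change of -4.19 (implied SE 1.63, adjusted p = 0.00937), on fitted counts that sum to 1.01 in FOG2_OE and 24.5 in WT. Camkk2 encodes an upstream kinase of the calmodulin cascade. Its 5 features, on chromosome 5 from 122761179 to 122770790 and listed antisense, all fell, and the authors' deposited table put their log2 changes between -4.58 and -3.43. Their summed level in WT was 2.60 CPM, against 0.192 CPM in FOG2_OE. Read as an F on 10 residual degrees of freedom, MSTRG.66568 and MSTRG.66569 still passed (adjusted p = 0.0111 and 0.0430). In that reading MSTRG.66570, MSTRG.66571 and MSTRG.66572 of Camkk2 did not pass (adjusted p = 0.165, 0.0876 and 0.102). Neither did the called features of Akap7 (0.147) and Trpc1 (0.0895). The 5 Camkk2 features may be pieces of 1 transcript. By comparison, the authors' deposited table called 1 of 87 features of calcium release and reuptake genes higher and 14 lower, at a median log2 change of -0.74. That is 17.2% called, where 1.16% of all features were higher and 4.65% lower. Read as an F on 10 residual degrees of freedom, only MSTRG.7524 and MSTRG.7525 of Trdn still passed (adjusted p = 0.0201 and 0.0170). MSTRG.7525 lies inside MSTRG.7524, and the other called features of that list did not pass. The difference between that list and the 13 features of the entry loci was not tested.

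**Figure D5:**
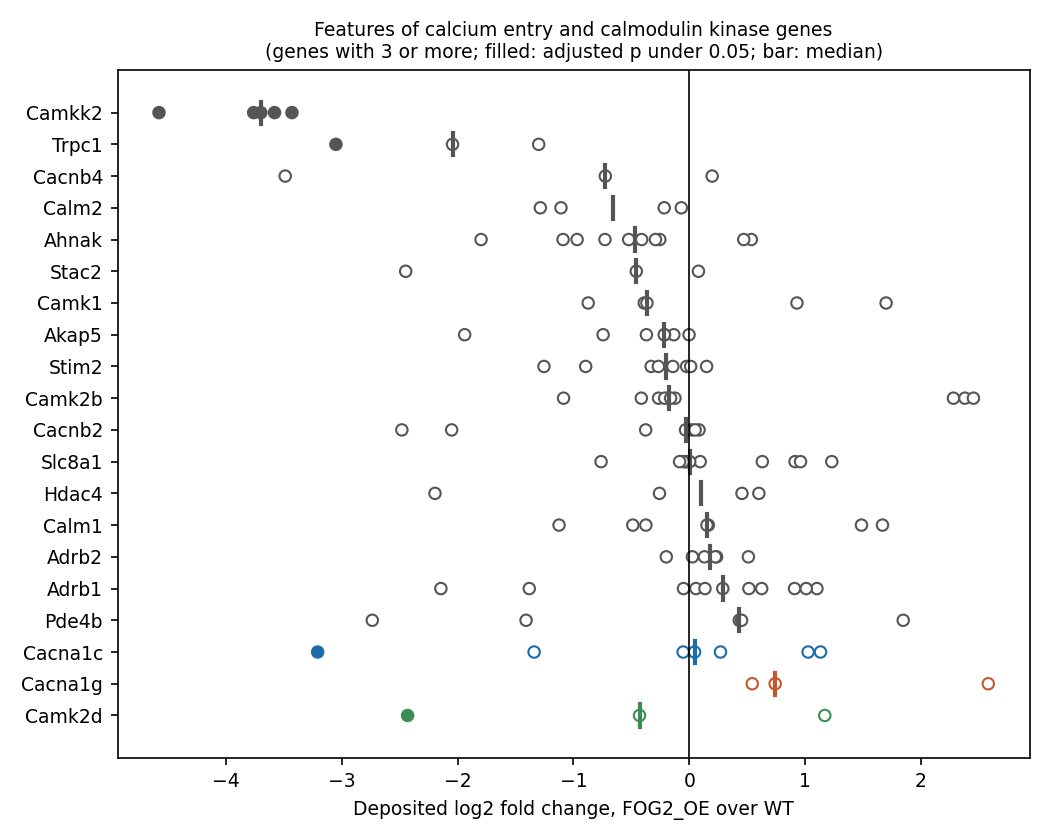
Each point is the deposited log2 fold change of 1 feature, by gene, for the 17 listed genes with 3 or more features and for Cacna1c, Cacna1g and Camk2d, filled where the adjusted p is under 0.05 and with a bar at the median of each gene. Filled points occur in Camkk2, Trpc1, Cacna1c and Camk2d, all to the left of 0; those of Camkk2 lie between -4.58 and -3.43.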

How the data were processed

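The comparison was of 3 FOG2_OE and 3 WT libraries from left atrium. Per the submitters' processing notes, the tools were deepTools, edgeR, HTSeq 0.6.0 and STAR and the build mm10, with no roles given. The authors deposited for each feature p-values (raw and adjusted), the likelihood ratio (a score), the mean log2 CPM and the log2 fold change. Their deposited sample columns, a signal in reads per library, are fitted values: within a group they were constant multiples of each other (largest relative spread 1.8e-14), so no count test could be run and the authors' likelihood ratio test was used. The labels do not say whether libraries share animals or days, and p-values measure only the spread between these libraries.

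Effective library sizes were taken from features above 300 fitted counts. The negative binomial dispersion at which fitted values give the deposited ratio yielded the implied standard errors; 2 members with ratios under 0.1 took that of features of like abundance. For members with a summed count of 3 or fewer in a group, the ratio is given with its counting interval. Features of the gene lists have none. The procedure was tested on data simulated from the same negative binomial model, which cannot show whether the authors' fit followed that model. Features were placed on GENCODE M21, starts counted from 1. Every member is accounted for; those given in most detail were the called members, the 3 most abundant of each gene and those with its highest and lowest fold change. Members and lists were chosen with earlier results of these data known. Alternatives were another scale, other reference distributions, a filter on low values, a stricter threshold and other link rules. Python 3.11.15, numpy 2.4.6, scipy 1.17.1, pandas 2.3.3 and matplotlib 3.10.9 were used.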

Additional observations from a re-analysis of the deposited data

How the results depend on the processing

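The 2 lower calls became 0 with the median ratio of all features set to 1, with 10 or 4 residual degrees of freedom, with an adjusted p under 0.01, and among features of at least 20 mean fitted counts, a filter that only 3 of the 13 pass. With 4 residual degrees of freedom no feature of the table passes (0 of 34518, against 2007 in the authors' deposited table), so that this setting cannot test the calls. Gene bodies alone, a 50 kb limit and 1 feature for each overlapping group left the 2 calls, since no member is intergenic or overlaps another. The count of higher calls was 0 in all of these settings. The log2 ratio of the summed Cacna1g level, 0.70, became 0.91 with the median ratio set to 1, by the shift of 0.21 that this setting gives every feature; the other summed ratios and medians moved by less than their counting interval or implied error, and no member of Camk2d passes the filter on low values. With the median ratio set to 1, the log2 change of 1 of the 13 features, MSTRG.71942, reversed from -0.05 to 0.16, uncalled in both, and the other 12 kept their sign. Count tests and left-out replicates were not run, because the sample columns are fitted values. No paired analysis was possible because these columns hold no spread between replicates. Depth limits the scarce members: 10 of 13 lay under 20 mean fitted counts.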

Other observations

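Features listed antisense that cross a coding exon, as MSTRG.15621 and MSTRG.15622 of Cacna1g do, were common in the table. Of 10192 features listed antisense in a protein-coding gene, 3725 touched a coding exon, and their median implied coefficient of variation was 41.8%, against 53.8% for the 6467 that touched none. The authors' deposited table called 44 of those touching a coding exon higher and 113 lower, and 60 and 302 of the others. Their median lengths were 339 and 196 bases and their median fitted counts 10.8 and 5.79 per library, so that the classes differ in depth as well.

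Among 1868 protein-coding genes with at least 5 linked features, the 3 whose log2 ratio of summed levels lay nearest to that of Cacna1c (0.20) were Twsg1, Rspo1 and Samd9l, each within 0.0029 of it. Those nearest to Cacna1g (0.70) were Ctcfl, Cnot6 and Pecam1, within 0.0052. Those nearest to Camk2d (-0.54) were Ppm1a, Rnf20 and Nt5e, within 0.0013. The likeness is over 2 group values only, and many genes share a ratio.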
